A study of Oncorhynchus mykiss with 15 samples.

Results

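The earliest state of a hypoxia time course was examined in the liver of wild-type rainbow trout (Oncorhynchus mykiss): 3 libraries from fish after 3 h of hypoxia stress against 3 libraries from control fish, 6 of the 15 libraries of the series. The libraries were chosen by their titles, and every row of the deposited small RNA table was kept, with rows that carry the same 15 values counted once as a profile. The table held 1213 rows and 1019 such profiles. The other 9 libraries, from fish after 12 or 24 h of hypoxia and after 3 h of reoxygenation, entered the estimate of the spread, the filter (a mean of at least 10 over 15 libraries, so a profile low in these 6 libraries could pass through later groups) and comparisons named below. The labels give neither the oxygen level, the age of the fish nor whether a library is 1 fish or a pool, so p-values measure only the spread between these libraries.

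MicroRNAs are short RNAs that guide Argonaute proteins to messenger RNAs, mainly through the seed, bases 2 to 8 of the mature strand. Each hairpin precursor gives a 5p and a 3p arm, of which one is usually kept and the other mostly degraded. In vertebrate liver miR-122 is the hallmark of hepatocytes. miR-210 is the best known target of the hypoxia-inducible factors in mammals, and miR-462 and miR-731 form a cluster known from bony fish, which hypoxia and virus infection induce in zebrafish or other fish cells.

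The sequences below are those the results turn on: the leading hepatocyte miRNA and its other arm, the family whose share differed by the largest amount, the fish cluster, and further salmon-named profiles with a small unadjusted p. Capitals mark the seed, and the letters are those of the deposited table.
ssa-miR-122-5p_R-1: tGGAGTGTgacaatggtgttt
ssa-miR-122-2-3p_R-1: aACGCCATtatcacactaaat
ssa-miR-21b-5p: tAGCTTATcagactggtgttggc
ssa-miR-462a-5p: tAACGGAAcccataatgcagctg
ssa-miR-731-5p: aATGACACgttttctcccggatt
ssa-miR-101a-3p: tACAGTACtgtgataactgaag
ssa-miR-203a-3p: gTGAAATGtttaggaccacttg
ssa-miR-106a-3p_R-1: cCGCAATGtgagcacttctgt
No pair of these shares a seed. The prefix ssa is the Atlantic salmon entry a row was matched to, and R-1 means that the row ends 1 base earlier than that entry.

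Column totals over profiles were 2498984, 2529704 and 2218703 in the 3 h libraries, against 4385366, 2491954 and 2090585 in control libraries 1, 2 and 3. The values are whole numbers from which reads could not be recovered, so the depth in reads is unknown and counting error cannot be stated. Control library 1 stood apart: over tested profiles its log2 differences from the other 5 libraries had SDs of 1.73 to 1.93, whereas the remaining pairs had SDs of 1.09 to 1.46 within groups and 1.08 to 1.44 between groups. Without that library, pairs from different groups therefore differed over the same range as pairs of 1 group. Of the 72 profiles and families named by rule, 13 had a log2 difference of the other sign without control library 1 and 38 more differed by over 1.5 times. Values without it are given for the main ones.

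After 3 h of hypoxia the order of the most abundant miRNAs was close to that of control liver. miR-122, the hepatocyte miRNA, led every library, and its 7 profiles together took 31.4%, 35.7% and 21.5% of the total in the 3 h libraries and 31.7%, 33.6% and 24.7% in the control libraries. The mean shares were 29.5% ± 7.26 at 3 h and 29.99% ± 4.68 in control (SD, n = 3 each), and the exact two-sided permutation p was 0.9, where 3 against 3 cannot go below 0.1. The sign of this difference of -0.444 percentage points turned without control library 1 or 2 or 3 h library 3. Of the 10 most abundant profiles, 9 were shared between the group means: ssa-miR-731-5p was among them only at 3 h and tni-let-7j_1ss11TG only in control. Libraries of 1 group shared 7 to 10 of their top 10, and libraries of different groups 7 to 9. Among the top 50 the counts were 39 to 45 within groups and 39 to 47 between groups.

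The concentration of the pool also overlapped. The 10 most abundant profiles of each library held 68.1%, 71.7% and 66.8% of the total at 3 h, against 79.98%, 71.5% and 64.7% in control, or 68.9% ± 2.52 at 3 h and 72.1% ± 7.65 in control (SD; exact permutation p = 0.7, two-sided, n = 3 each). The control value rests on library 1: without it the difference of -3.20 percentage points became 0.752. It took 45, 43 and 51 profiles to reach 90% of the total at 3 h, and 26, 42 and 52 in control. Of 15 such whole-library measures, which also covered GC content, mean length, predicted candidates and the share of rows with changed ends or bases, the smallest exact two-sided permutation p was 0.2 (0.9 after Benjamini-Hochberg adjustment over the 15). That smallest p belonged to predicted candidates, at 0.249% ± 0.0213 of the total at 3 h and 0.211% ± 0.0336 in control.

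**Figure D1:**
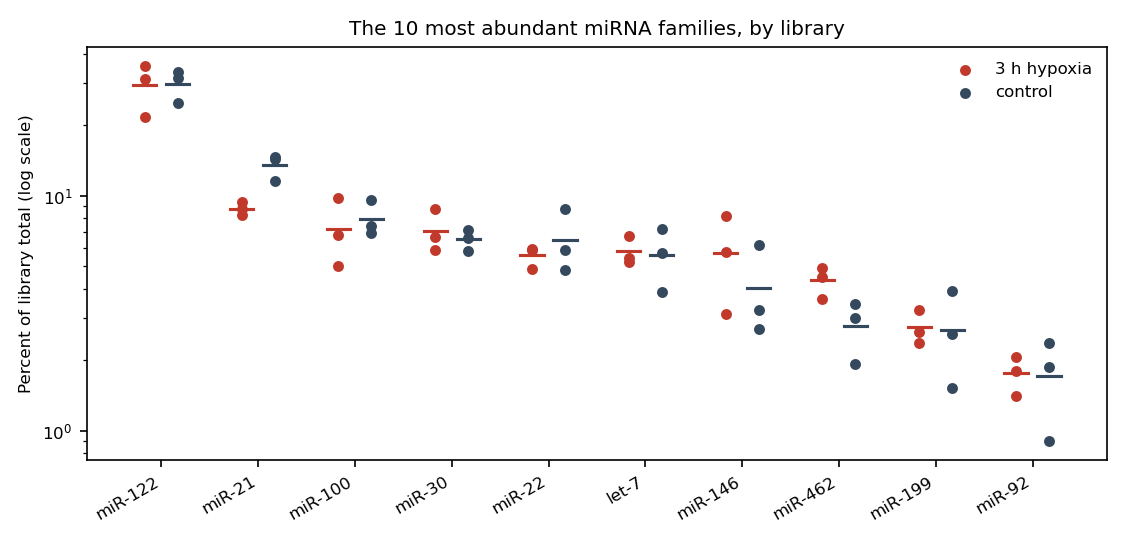
Share of the library total (percent, log axis) for the 10 most abundant miRNA families; points are the 3 libraries of 3 h hypoxia (red, left) and of control (dark, right), and lines are means. miR-21 lies lower in all 3 libraries of 3 h hypoxia (8.25% to 9.42%, against 11.5% to 14.6% in control) and miR-462 higher, while the other 8 families overlap.

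Among the 10 most abundant families, miR-21 and miR-462 had shares that did not overlap between the groups. miR-21, an abundant miRNA of liver and immune cells linked to inflammation and growth in mammals, took 9.42%, 8.74% and 8.25% of the total at 3 h, against 14.3%, 11.5% and 14.6% in control. All 3 h libraries lay below all controls. miR-462 took 3.64%, 4.50% and 4.93% at 3 h, against 3.46%, 1.92% and 3.01% in control, with all 3 h libraries above all controls. Its cluster partner miR-731 had mean shares of 2.04% ± 0.561 at 3 h and 1.11% ± 0.251 in control (SD, n = 3), also without overlap. Shares did not overlap in 10 of 166 tested families (6.02%). The other members of the 10 were miR-149, miR-193, miR-574 (lower) and miR-222, miR-486, miR-96 and miR-4521 (higher), named after their values were seen, of which miR-222, at 0.853% ± 0.131 at 3 h and 0.606% ± 0.0870 in control, was the only one above 0.1% of the total.

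On the deposited scale no miRNA passed at 3 h. limma called 0 of 622 tested profiles (0.0%) with Benjamini-Hochberg adjustment at 0.05, and the smallest adjusted p was 0.996. At an unadjusted p under 0.05 there were 11 profiles (1.77%), 3 higher and 8 lower. These profiles are a smaller part of those tested than the share of 0.05 that falls under the cutoff on average without any difference. Leaving out 3 h library 1, 2 or 3 gave 18, 9 or 3 such profiles, and leaving out control library 1, 2 or 3 gave 5, 20 or 27; limma called 0 in each. The median profile differed by -0.02 on the log2 scale, with 297 profiles higher and 320 lower, and the middle 50% of profiles lay between -0.42 and 0.43. With values divided by their library totals that median became 0.18, so changes of level are read against that shift. The same fit called 95 of 622 profiles (15.3%) for 12 h against 3 h of hypoxia, a comparison that uses no control library. That comparison was run on the deposited scale only, without the alternatives used for 3 h against control.

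**Figure D2:**
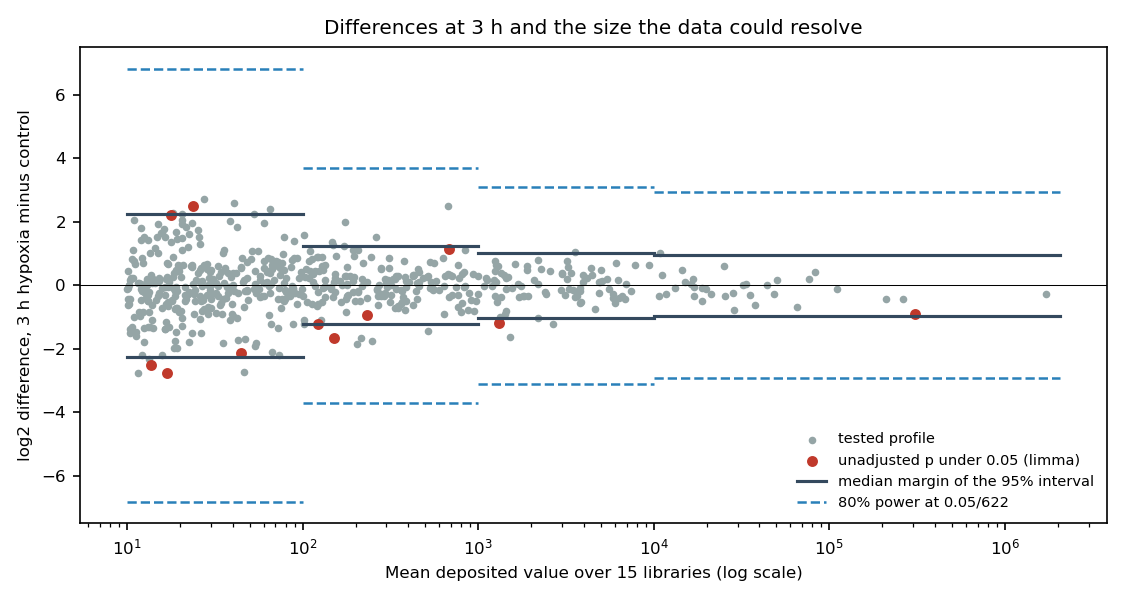
log2 difference of 3 h hypoxia minus control (vertical) against the mean deposited value over 15 libraries (log axis) for 622 profiles. Solid lines give the median margin of the 95% interval per abundance class and dashed lines the median change with 80% power at 0.05/622; all points lie inside the dashed lines of their class, and the 11 red points have an unadjusted p under 0.05.

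How large a change could have gone unseen was read from the 95% intervals of limma. The margin, the distance from an estimate to either end of its interval, had a median of 1.56 on the log2 scale, a factor of 2.95. It was 2.25 for the 326 profiles with a mean of 10 to 100, 1.22 for 176 profiles of 100 to 1000, 1.02 for 86 profiles of 1000 to 10000 and 0.97 for 34 profiles of at least 10000. The interval lay inside a 2-fold change in either direction for 32 profiles (5.14%), inside 4-fold for 303 (48.7%) and inside 8-fold for 442 (71.1%). Intervals inside 2-fold numbered 1 of 326, 13 of 176, 12 of 86 and 6 of 34 in these classes, from lowest to highest. For most miRNAs of every class, therefore, a change of 2-fold in at least 1 direction was not excluded in this fit. For the median profile a change of 2.20 (4.59-fold) would pass an unadjusted 0.05 in 80% of such experiments, and a change of 4.73 (26.5-fold) would pass 0.05 divided by the 622 tests. In the most abundant class these sizes were 1.36 (2.56-fold) and 2.92 (7.56-fold). All these margins and sizes are from the fit of 5 groups and include the spread of the later groups. The median margin was 1.44 in a fit of the 6 libraries alone. It was 1.31 without 24 h library 1 and reoxygenation library 1, which were left out after the data were seen.

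The narrowest intervals among abundant miRNAs belonged to 5 profiles, which bound the early response most closely on the deposited scale. ssa-miR-181c-5p_R+1, of a family known from lymphocytes and brain in mammals, had values of 4529, 5203 and 5459 at 3 h, against 4409, 5062 and 4695 in control. Its log2 difference was 0.10 with a 95% interval of -0.47 to 0.67, or a factor of 0.722 to 1.59. ssa-miR-25-3p had 2158, 1930 and 2265 at 3 h, against 1889, 2311 and 2551 in control, with an interval of -0.67 to 0.52. The groups overlapped in both. The intervals of ssa-miR-30d-5p_1ss19AG, ssa-miR-92a-3p and ssa-miR-93a-5p ran from -0.70 to 0.52, from -0.71 to 0.53 and from -0.62 to 0.70.

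miR-210 and the miR-92a form studied further both overlapped with control. ssa-miR-210-5p, the more abundant arm of miR-210 in this table, had 5169, 5151 and 4211 at 3 h, against 3637, 5236 and 4355 in control, a log2 difference of 0.14 ± 0.35 (SE) with a 95% interval of -0.60 to 0.89, or 0.659-fold to 1.86-fold. The groups overlapped, and on the deposited scale a rise of 2-fold lies outside that interval. With values divided by library totals, the median of all profiles was 0.18 and the median margin 1.76, against -0.02 and 1.56. Whether a 2-fold rise of ssa-miR-210-5p is also outside its interval on that scale is not given here. ssa-miR-210-3p, the arm followed in mammalian hypoxia work and named after its values were seen, had 2956, 1787 and 994 at 3 h, against 1018, 2578 and 2483 in control, a spread of nearly the same range in both groups. sha-miR-92a_L+2R+4, the miR-92a form that the study took into functional work, had 43, 91 and 158 at 3 h, against 63, 78 and 77 in control. Its 3 h values enclosed all controls, and its 95% interval spans 0.501-fold to 2.77-fold. The more abundant ssa-miR-92a-3p differed by -0.09 and ssa-miR-92b-3p by -0.05.

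Of 44 tested profiles on the hypoxia-responsive list, 18 were higher, 26 lower and 0 called, with a median of -0.11 against -0.02 over all profiles. Summed, that list took 12.2% to 13.2% of the total at 3 h and 16.5% to 18.6% in control, without overlap. Its member miR-21 alone took 8.25% to 9.42% at 3 h and 11.5% to 14.6% in control. Mean shares at 3 h and in control were 12.7% and 17.3% for the list, and 8.80% and 13.5% for miR-21. The difference of the sum is therefore about that of miR-21 alone, and not a drop shared by the list. The second member by abundance, ssa-miR-199a-5p of connective tissue, differed by 0.01 (95% interval -0.97 to 0.99).

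The main form of miR-21 had lower values at 3 h without a call. ssa-miR-21b-5p had 204813, 188892 and 158046 at 3 h, against 561539, 267005 and 275330 in control. All 3 h libraries were below all controls, of which library 1 was about the size of the other controls together. The log2 difference was -0.92 ± 0.41 (SE), with a 95% interval of -1.79 to -0.04, an unadjusted p of 0.0406 and a limma adjusted p of 0.996. Without control library 1 it was -0.57. ssa-miR-21a-5p_R-3, which has the same seed, had 25263, 23912 and 18511 at 3 h, against 49497, 17211 and 25427 in control, so its groups overlapped. Of 8 tested miR-21 profiles 4 were lower and 4 higher, and both 3p forms were higher: ssa-miR-21b-3p_R-1 had 2623, 1005 and 1232 at 3 h, against 1759, 186 and 1006 in control. Over the whole family the log2 difference of the sums was -0.84, with a 95% interval of -1.70 to 0.02, and -0.48 without control library 1. At 12 h ssa-miR-21b-5p was above its 3 h level by 1.33 on the log2 scale, which passed (limma adjusted p = 0.0393). That fit used the deposited values, not shares. As a share of the total, the miR-21 family took 6.52% to 11.5% at 12 h and 8.25% to 9.42% at 3 h, with overlap.

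**Figure D3:**
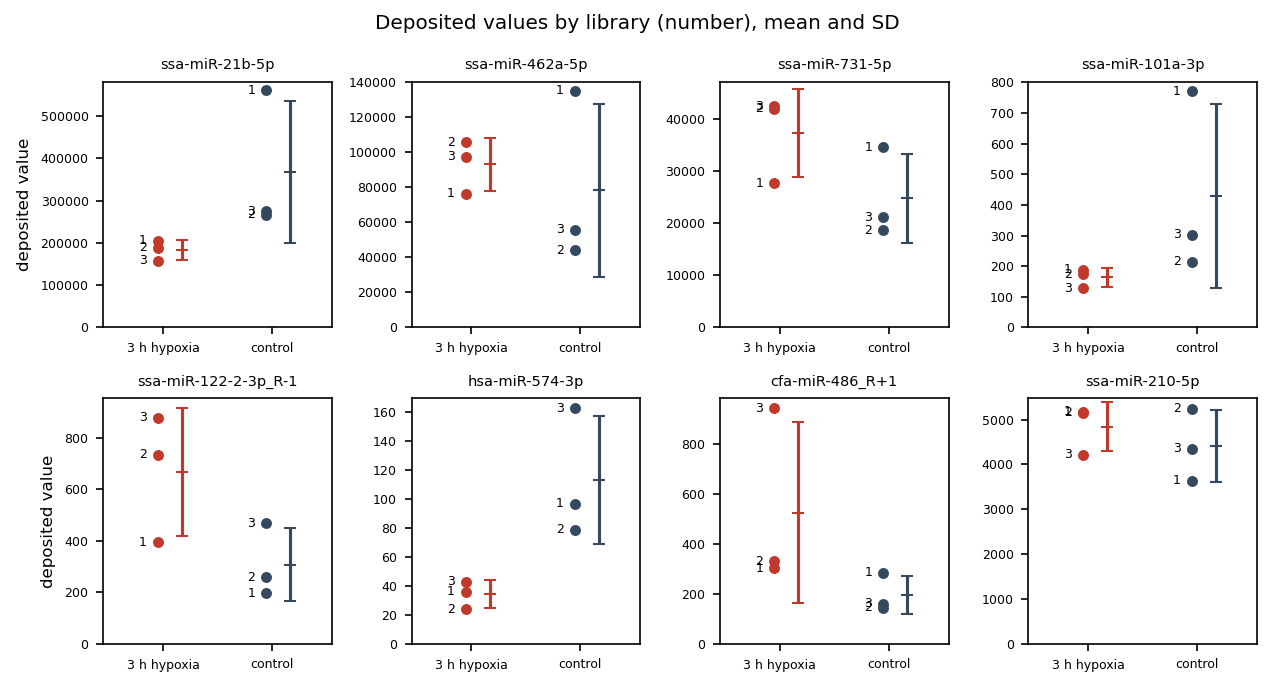
Deposited values of 8 profiles in each library (points with the library number) with mean and SD, 3 h hypoxia in red on the left and control in dark on the right of each panel, axes from 0. Groups do not overlap for ssa-miR-21b-5p, ssa-miR-101a-3p, hsa-miR-574-3p (all lower at 3 h) and cfa-miR-486_R+1 (higher), and overlap for the other 4.

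The miR-462 and miR-731 cluster was mostly above control, without any call. ssa-miR-462a-5p had 76276, 105756 and 97656 at 3 h, against 135246, 44223 and 55725 in control, so control library 1 exceeded every 3 h library and the groups overlapped. ssa-miR-731-5p had 27607, 41876 and 42340 at 3 h, against 34483, 18658 and 21111 in control, with the same library among the high ones. Their log2 differences were 0.41 (95% interval -0.87 to 1.70, and 0.90 without control library 1) and 0.62 (-0.72 to 1.95). The other arm, ssa-miR-731-3p, did not overlap, at 8597, 10746 and 14240 at 3 h against 6150, 6281 and 7962 in control. Neither did dre-miR-462_L+1R+1, at 197, 362 and 633 at 3 h against 177, 135 and 190 in control. Of the 10 tested profiles of the cluster 9 were higher and 0 called, with a median of 0.63. Over all profiles 297 of 622 were higher. The 10 profiles are forms of miR-462 and miR-731, so they are not separate observations. Without control library 1 all 10 were higher, with a median of 0.85, and leaving out any other single library gave 8 to 10 higher. The cluster took 2.93% to 4.41% of the total in control, 5.10% to 7.51% at 3 h, 1.06% to 1.99% at 12 h, 2.02% to 8.89% at 24 h and 0.620% to 5.93% after reoxygenation.

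The 3p arm of miR-101, a miRNA known in mammals for targeting the histone methyltransferase EZH2, had lower values at 3 h in ssa-miR-101a-3p. ssa-miR-101a-3p averaged 164 ± 31.8 at 3 h (SD, n = 3), against a median of 302 and a highest value of 771 in control, and every 3 h library was below every control. Its log2 difference was -1.18 ± 0.50 (SE), with an unadjusted p of 0.0311 and limma adjusted p = 0.996, and -0.65 without control library 1. ssa-miR-101b-3p_R+1, the more abundant 3p profile in these libraries, averaged 343 at 3 h and 526 in control. It differed by -0.53 and hsa-miR-101-3p_R+2 by -1.03, both with overlap. A further 3p profile, gmo-miR-101a-3p, stood at 2 to 5 in all 6 libraries. Of the 5p arm, ssa-miR-101a-5p_R-1 differed by 0.12, and ssa-miR-101b-5p_L+1R-3 had 3805, 5008 and 5972 at 3 h, against 3291, 4029 and 3960 in control, a difference of 0.37. By 12 h ssa-miR-101a-3p was 3.74 above 3 h on the log2 scale, which passed (limma adjusted p = 0.000589). That fit used the deposited values, not shares. Over both arms, the miR-101 family took 0.180% to 0.230% of the total at 12 h and 0.193% to 0.315% at 3 h, with overlap.

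For miR-122, the main 5p arm overlapped between the groups, at 781362, 898129 and 473446 at 3 h against 1386724, 834238 and 512308 in control. Its log2 difference was -0.28, with a 95% interval of -1.59 to 1.04, and 0.083 without control library 1. Of 8 tested profiles with its seed, itself included, 7 were lower and 0 higher, with differences from -1.48 to 0.00. The others with that seed are not numbered miR-122. rno-miR-122-5p_L+1R-1 and fru-miR-122_L+2R-1, which lack that seed, differed by 0.33 and 0.62. The minor 3p arm was higher: ssa-miR-122-2-3p_R-1 had 394, 735 and 877 at 3 h, against 196, 258 and 468 in control, and xla-mir-122-p3 had 51, 22 and 42 at 3 h, against 0, 7 and 36 in control. In the first, 3 h library 1 lay below control library 3, and in the second 3 h library 2 did, so the groups overlapped in both. The differences were 1.14 and 2.48 (unadjusted p of 0.0496 and 0.0424, limma adjusted p = 0.996 for both), and 0.86 and 1.11 without control library 1. The 3p arm made up 0.112% ± 0.0724 of all miR-122 at 3 h and 0.0487% ± 0.0451 in control (exact permutation p = 0.3, two-sided, n = 3 each).

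The profile with the smallest p was ssa-miR-106a-3p_R-1, the minor arm of a miR-17 family member linked to cell growth. It was listed at 0, 0 and 2 at 3 h, against 19, 5 and 7 in control, a log2 difference of -2.77 ± 0.82 (SE; unadjusted p = 0.00429, limma adjusted p = 0.996). It passed the filter through later groups. The remaining profiles of the 10 smallest p were 4 predicted candidates, which were all lower (PC-3p-11974_177, PC-5p-2138_1889, PC-3p-3375_979 and PC-3p-8380_282, at -2.50, -1.67, -1.22 and -2.12), and dre-miR-729_R-2_1ss1CT, which was higher, at 20, 20 and 27 at 3 h against 0, 20 and 5 in control (2.20, and 1.04 without control library 1). All 4 candidates overlapped between the groups. Over the 87 tested candidates the median was -0.24 with a median margin of 2.32, wider than the 1.56 of all profiles.

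At the level of families, limma called 0 of 166 (0.0%), with an unadjusted p under 0.05 in 0. The sums did not overlap between the groups in 14 of 166 families (8.43%). The 5 smallest p were those of miR-203, miR-21, miR-729, miR-190 and miR-8159, with log2 differences of -1.24, -0.84, 2.20, 1.94 and -1.85 and unadjusted p of 0.0527 to 0.0860. miR-203, a miRNA of epithelia and skin in mammals, had 2 profiles in the table, both lower at 3 h. ssa-miR-203a-3p had 84, 113 and 96 at 3 h, against 169, 249 and 158 in control, without overlap, and ssa-miR-203b-3p_L+1 averaged 183 ± 105 at 3 h and 511 ± 341 in control (SD, n = 3), with overlap. The other 9 of the 10 most abundant families after miR-21 had differences between -0.42 (miR-100 and miR-22) and 0.44 (miR-462). The tightest of these was miR-92, at -0.11 with a 95% interval of -0.66 to 0.44, and the widest was miR-122, at -0.28 with -1.61 to 1.06. Over all families the interval lay inside 2-fold for 25 and inside 4-fold for 90 of 166. Grouped by seed in place of number, 0 of 302 groups were called, and the miR-21 seed group of 8 profiles averaged 211266 ± 26523 at 3 h and 404684 ± 188838 in control (SD, n = 3).

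**Figure D4:**
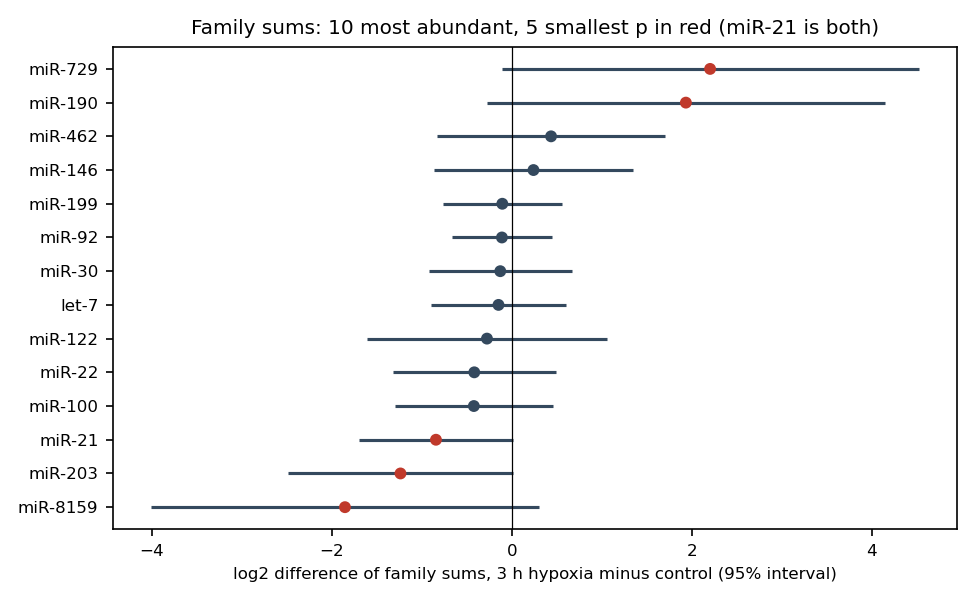
log2 difference of family sums, 3 h hypoxia minus control, with 95% intervals, for the 10 most abundant families and the 5 with the smallest unadjusted p (red, miR-21 in both). Every interval includes 0; those of miR-21 and miR-203 end at 0.02.

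Blood cell and immune miRNAs were mostly above control without calls. Of 21 tested profiles of white blood cells and inflammation, 20 were higher and 1 lower, with a median of 0.70 against -0.02 over all profiles, where 297 of 622 were higher. Groups overlapped in every one, and the list took 3.44% to 8.44% of the total at 3 h and 2.89% to 6.26% in control. These profiles are forms of miR-142, miR-146, miR-150, miR-155 and miR-223, so they are not separate observations. The count was 14 of 21 without control library 2 and 15 of 21 without 3 h library 3, with medians of 0.14 and 0.36, and 21 of 21 without control library 1. ssa-miR-146a-5p, a brake on inflammatory signalling in mammals and the leading member, had 71856, 139708 and 164554 at 3 h, against 256593, 65914 and 63500 in control, with groups that overlapped (0.21, 95% interval -0.94 to 1.36). ssa-miR-146d-5p had 4431, 2008 and 12350 at 3 h, against 7722, 815 and 3571 in control (0.76). dre-miR-150_1ss9TC, of a miRNA of mature lymphocytes, stood at 750 in 3 h library 3 and at 64 to 117 in the other 5 libraries. In bulk liver, a change in the number of cells of a type and a change in RNA per cell cannot be told apart.

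Red blood cell miRNAs gave 5 of 8 profiles higher and 0 called, with a median of 0.65. That median was 0.18 without control library 1, 0.29 without control library 2 and 1.11, with 7 of 8 higher, without control library 3. gmo-miR-451-5p, the erythroid miRNA, averaged 5235 ± 1949 at 3 h and 3909 ± 2610 in control (SD, n = 3), a log2 difference of 0.54 with a 95% interval of -0.50 to 1.58, and ssa-miR-144-5p_R-1, from the same cluster in vertebrates, differed by -0.06. The list took 0.157% to 0.408% of the total at 3 h and 0.0749% to 0.383% in control. cfa-miR-486_R+1 did not overlap, at 526 ± 362 at 3 h and 197 ± 76.6 in control (SD, n = 3). Its 3 h library 3 stood at 943, against 303 and 331 in 3 h libraries 1 and 2 and 285 in control library 1. In all 12 h and 24 h libraries this profile was listed at 0. Reoxygenation libraries 1, 2 and 3 had 65, 0 and 0. The row was matched to an entry outside bony fish, and its source was not tested. The miR-15/16 family had 18 of 27 profiles higher (median 0.47), but without control library 1 the median was -0.06. In that library oni-miR-457 was at 2409, against 20933 and 18632 in the other controls and 23845, 14109 and 23513 at 3 h. ssa-miR-16a-5p differed by 0.20.

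Epithelial and bile duct miRNAs were mostly below control, with 10 of 12 tested profiles lower, 2 higher, 0 called and a median of -0.78. Over all profiles 320 of 622 were lower. The 12 profiles are forms of miR-200, miR-203, miR-205 and miR-429, so they are not separate observations. ssa-miR-200a-3p_R-1, of the family that maintains epithelial identity in mammals, had 2324, 1765 and 620 at 3 h, against 5125, 3012 and 2156 in control (-1.24, 95% interval -2.85 to 0.38), and ssa-miR-200b-3p_R-1 had 7494, 3901 and 1567 at 3 h, against 4938, 4900 and 6101 in control. 3 h library 3 was the lowest of the 6 in both. The list took 0.125% to 0.421% of the total at 3 h and 0.249% to 0.442% in control, and without 3 h library 3 there were 7 of 12 lower, with a median of -0.74. How far the epithelial, immune and blood content of each piece of liver plays a part in these differences was not tested.

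**Figure D5:**
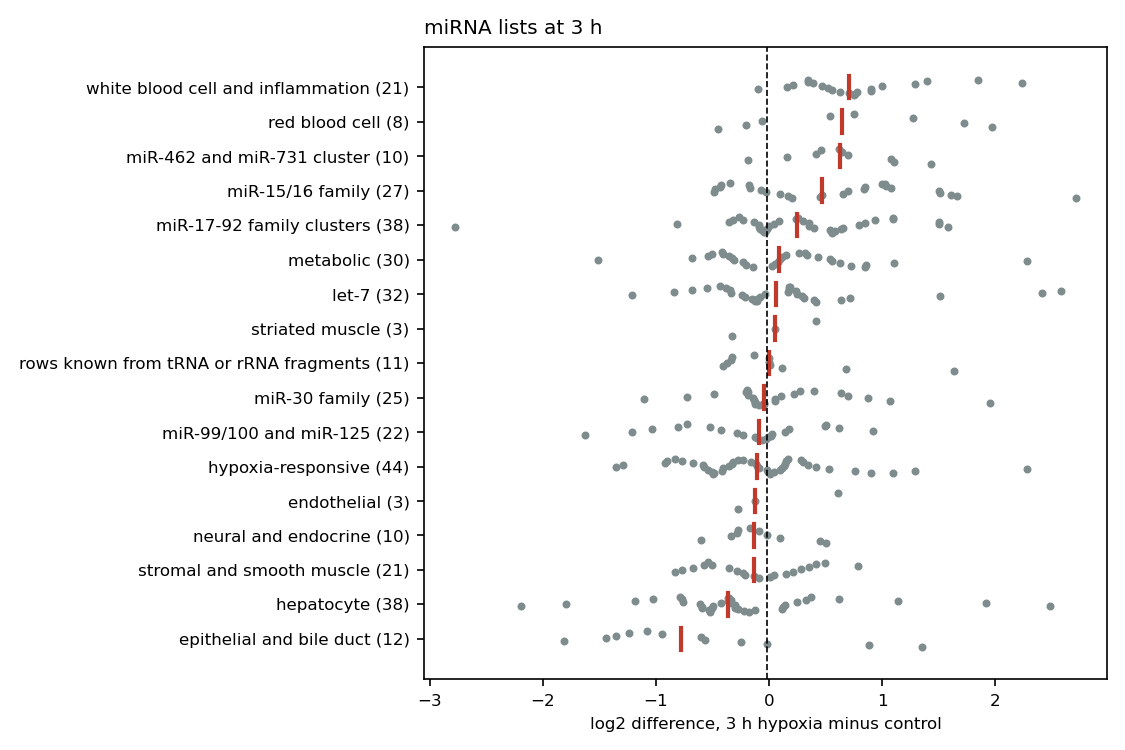
log2 difference of each tested profile (grey points, number in brackets) on 17 miRNA lists, 3 h hypoxia minus control, with the list median (red bar) and the median of all 622 profiles (dashed). White blood cell and inflammation miRNAs have the highest median (0.70) and epithelial and bile duct miRNAs the lowest (-0.78).

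Hepatocyte miRNAs had 28 of 38 profiles lower and 0 called, with a median of -0.36, which control library 1 decided: without it 19 were lower and 19 higher, with a median of -0.01. ssa-miR-22a-3p, the second member by abundance, had 136153, 140936 and 101249 at 3 h, against 373161, 111629 and 112057 in control, so 2 of 3 controls lay within the 3 h range. The miR-17-92 family clusters had 22 of 38 higher (median 0.25, and -0.01 without control library 1). let-7, the miR-30 family, miR-99/100 with miR-125 and the metabolic list had medians of 0.07, -0.04, -0.09 and 0.09. Without control library 1 those of let-7, miR-30 and miR-99/100 were -0.09, 0.07 and 0.08, and without control library 2 that of let-7 was 0.24. Without 3 h library 3 the metabolic median was -0.0032. Stromal and smooth muscle, endothelial, neural and endocrine and striated muscle miRNAs had medians of -0.14, -0.12, -0.13 and 0.05 over 21, 3, 10 and 3 profiles, and 0 were called on any list. The stromal median was -0.34 without control library 1 and 0.31 without control library 2, the endothelial one 0.29 and -0.33, and that of striated muscle was 0.08 and -0.25. The neural and endocrine median ran from -0.22 to -0.04 with 1 library left out. With values divided by library totals, the medians of the hypoxia-responsive, miR-30, miR-99/100, endothelial, stromal and neural lists were above 0. The median of all 622 profiles was then 0.18. That of miR-30 was 0.19, and the others named ran from 0.05 to 0.14, still below all profiles.

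Their leading members overlapped between the groups. ssa-miR-100a-5p_R-1, ssa-miR-30b-5p_R-1 and ssa-let-7a-5p, all among the 10 most abundant profiles, differed by -0.42, -0.12 and 0.18, and tni-let-7j_1ss11TG by -0.24. ssa-miR-125a-5p, ssa-miR-30a-5p, tni-miR-27c and ssa-miR-33b-3p, a miRNA that lies in a sterol-regulator gene in mammals, differed by -0.01, 0.05, 0.02 and 0.11. The stromal and endothelial ssa-miR-143-3p_R+1, ssa-miR-126-3p and ssa-miR-126-5p differed by -0.28, -0.28 and -0.12. The muscle miRNAs ssa-miR-499b-5p_R-1 and ssa-miR-133b-3p_L-1R+2 differed by -0.33 and 0.41, and the neural and endocrine ssa-miR-128-3p and ssa-miR-375-3p by -0.28 and -0.27. Of rows known from tRNA or rRNA fragments, 11 were tested with a median of 0.00, and bta-miR-2478_L-2 and cgr-miR-1260 differed by -0.41 and -0.37. None of these intervals excluded 0.

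The groups did not overlap in 36 of 622 profiles (5.79%), 12 higher (1.93%) and 24 lower (3.86%). For interchangeable libraries, full separation of 3 against 3 has a probability of 0.1. The 5.79% of profiles, 6.02% of family shares and 8.43% of family sums lie below it. Among those with a group mean of at least 50, the largest lower differences were aca-miR-193-5p_R+1 (-2.72), dre-miR-217_R+1 (-1.91), cgr-miR-378-3p (-1.77), hsa-miR-574-3p (-1.66) and ssc-miR-125a (-1.63). Of the 24 lower profiles 11 were matched to entries of species other than bony fish (45.8%), against 5 of the 12 higher profiles (41.7%) and 154 of all 622 tested profiles (24.8%). The prefix names the entry and not the organism of the sample.

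Part of these profiles stood far higher in 1 library outside the comparison. hsa-miR-574-3p had 36, 24 and 43 at 3 h, against 97, 79 and 163 in control, and stood at 2718 in reoxygenation library 1 but was listed at 0 in libraries 2 and 3 of reoxygenation. ssc-miR-125a had 198, 113 and 268 at 3 h, against 521, 435 and 792 in control, and stood at 19915 in reoxygenation library 1 against 31 and 23 in libraries 2 and 3. Of the 24 lower profiles 8 had their highest value of all 15 libraries in reoxygenation library 1 (33.3%). This held for 2 of the 12 higher profiles (16.7%) and 109 of 622 tested profiles (17.5%). All 8 were matched to entries outside bony fish, as were both of the 2 higher profiles and 64 of the 109. The margin of hsa-miR-574-3p was 4.95 in the fit of 5 groups and 1.19 in a fit of the 6 libraries alone, where its unadjusted p was 0.0140 and its limma adjusted p 0.936. The second fit holds no reoxygenation library, and the source of these rows was not tested.

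Among the 12 higher profiles, the largest differences with a group mean of at least 50 were gga-mir-15b-p5_1ss17GT (2.71), hsa-let-7e-5p_R-1 (2.41), aca-let-7b-5p_L+2_2ss19GA21GA (1.51), cfa-miR-486_R+1 (1.27) and dre-miR-462_L+1R+1 (1.10). For the first 3, control library 1 was the lowest library: gga-mir-15b-p5_1ss17GT had 54, 64 and 96 at 3 h, against 0, 29 and 40 in control. Without it their differences were 1.002, 0.65 and 0.50. Of the tested profiles, 0 were listed at 0 in all libraries of 1 group and above 0 in all of the other.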

How the data were processed

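Small RNA libraries of trout liver were compared as labelled. The values deposited by the authors are treated as a score. The authors called them TPM, but they are rounded to whole numbers, library totals differ and whole reads could not be recovered, so the depth is unknown. For aligner, miRNA caller and genome build: not given in the sources used here. The authors' deposited p-value column was not used.

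Rows with the same 15 values were counted once. Profiles with a mean of at least 10 over 15 libraries were tested as log2(value + 1), so that differences of low profiles are understated, with limma 3.58.1 in R 4.3.3 (trended variance, 5 groups in 1 fit, Benjamini-Hochberg adjustment over 622 profiles, threshold 0.05). Families are sums over profiles with 1 miRNA number, with predicted candidates left out, fitted likewise. Margins are those of limma's 95% intervals, and detectable sizes come from the noncentral t distribution at 80% power. Whole-library measures were compared by exact two-sided permutation (SciPy 1.17.1). The fit was tested on simulated data.

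Named profiles were the 10 most abundant, the 10 smallest p, the 5 largest non-overlapping each way with a group mean of at least 50, the 5 narrowest intervals with a mean of at least 1000, fixed miRNAs (miR-122, miR-210, miR-462, miR-731, miR-92 and the study's miR-92a form) and the 2 most abundant of each of 17 lists, and families the 10 most abundant and the 5 smallest p. Others were named after their values were seen. The members and lists were chosen with earlier results of these data known. Profiles of a list can be forms of the same miRNA, so counts within a list are not counts of separate observations.

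Same-numbered libraries of the 2 groups correlated at -0.03, 0.02 and 0.12 in their deviations from the group means, so the numbers were not taken as pairs. Alternatives covered scaling, pseudocount, filters, the variance model, the libraries fitted and each library left out.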

Additional observations from a re-analysis of the deposited data

How the results depend on the processing

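limma called 0 profiles and 0 families under every alternative, with 3 to 27 profiles and 0 to 12 families at an unadjusted p under 0.05. The lowest adjusted p was 0.336 for profiles, without 3 h library 1, and 0.292 for families, without 24 h library 1 and reoxygenation library 1, an alternative chosen after seeing the data. The median margin ran from 1.16 (mean of at least 100) to 2.16 (no filter). With the replicate number as a block, limma called 0 profiles (14 at an unadjusted p under 0.05) and 0 families (1), and the median margin was 1.4996. Of the 3 h libraries, library 3 alone correlated best with the control of its own number among the 3 controls. The difference in the share of miR-122 was 0.190 percentage points with all rows kept and ran from -3.52 to 3.56 with 1 library left out, and that in the share of the 10 most abundant profiles ran from -6.88 to 0.752. With quantile normalization, the log2 difference turned to 0.024 (ssa-miR-22a-3p), -0.0036 (ssa-miR-199a-5p), -0.022 (ssa-miR-210-5p), 0.041 (ssa-miR-92a-3p), 0.23 (ssa-miR-125a-5p), -0.067 (ssa-miR-93a-5p), 0.062 (family let-7), 0.23 (family miR-30) and 0.038 (family miR-92). Divided by library totals, the log2 difference turned to 0.11 (ssa-miR-30b-5p_R-1), 0.18 (ssa-miR-92b-3p), 0.15 (ssa-miR-92a-3p), 0.23 (ssa-miR-125a-5p), 0.17 (ssa-miR-144-5p_R-1), 0.11 (ssa-miR-126-5p), 0.15 (ssa-miR-25-3p), 0.15 (ssa-miR-30d-5p_1ss19AG), 0.087 (family let-7), 0.13 (family miR-199), 0.11 (family miR-30) and 0.13 (family miR-92). Divided by totals without miR-122, the log2 difference turned to 0.10 (ssa-miR-30b-5p_R-1), 0.18 (ssa-miR-92b-3p), 0.14 (ssa-miR-92a-3p), 0.22 (ssa-miR-125a-5p), 0.17 (ssa-miR-144-5p_R-1), 0.10 (ssa-miR-126-5p), 0.15 (ssa-miR-25-3p), 0.14 (ssa-miR-30d-5p_1ss19AG), 0.081 (family let-7), 0.12 (family miR-199), 0.10 (family miR-30) and 0.12 (family miR-92). With 1 library left out, log2 differences that crossed 0 had lowest and highest values of -0.63 to 0.083 (ssa-miR-122-5p_R-1), -0.74 to 0.029 (ssa-miR-100a-5p_R-1), -0.71 to 0.16 (ssa-miR-22a-3p), -0.14 to 0.87 (ssa-miR-146a-5p), -0.45 to 0.23 (ssa-miR-30b-5p_R-1), -0.22 to 0.31 (ssa-miR-199a-5p), -0.50 to 0.046 (tni-let-7j_1ss11TG), -0.30 to 0.15 (ssa-miR-92b-3p), -0.20 to 0.72 (sha-miR-92a_L+2R+4), -0.11 to 0.19 (ssa-miR-30a-5p), -0.21 to 0.21 (ssa-miR-125a-5p), -0.13 to 0.15 (tni-miR-27c), -0.25 to 0.41 (ssa-miR-33b-3p), -0.027 to 0.38 (ssa-miR-16a-5p), -0.39 to 0.45 (ssa-miR-144-5p_R-1), -0.13 to 1.49 (ssa-miR-146d-5p), -0.69 to 0.29 (ssa-miR-126-3p), -0.33 to 0.15 (ssa-miR-126-5p), -1.10 to 0.033 (ssa-miR-200b-3p_R-1), -0.66 to 0.10 (ssa-miR-375-3p), -1.05 to 0.11 (bta-miR-2478_L-2), -0.88 to 0.10 (cgr-miR-1260), -0.20 to 0.016 (ssa-miR-25-3p), -0.24 to 0.071 (ssa-miR-30d-5p_1ss19AG), -0.20 to 0.29 (ssa-miR-93a-5p), -0.74 to 0.030 (family miR-100), -0.63 to 0.084 (family miR-122), -0.096 to 0.91 (family miR-146), -0.30 to 0.13 (family miR-199), -0.70 to 0.14 (family miR-22), -0.33 to 0.10 (family miR-30) and -0.20 to 0.0071 (family miR-92). The cause of these turns was not tested. No named profile or family was called under any alternative, and the unknown depth limits the low values.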

Other observations

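Some miRNAs of other cell types passed the test for 12 h against 3 h of hypoxia. ssa-miR-126-3p and ssa-miR-126-5p, of endothelium, were above their 3 h levels at 12 h by 2.63 and 2.15 on the log2 scale (limma adjusted p = 0.0169 and 0.0118), while at 3 h they differed from control by -0.28 and -0.12. ssa-miR-499b-5p_R-1, of slow muscle in mammals, differed by 2.51 between 12 h and 3 h (limma adjusted p = 0.00507). oni-miR-457 was lower at 12 h than at 3 h, by -2.46 (limma adjusted p = 0.0348). These comparisons share the 3 h libraries with the one above and were run on the deposited scale only.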
